A study of Mus musculus with 6 samples.

Results

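B cells were rare among the cells of the mouse aorta in these data, and most of them came from a single library. A barcode was taken as a B cell if it showed 500 or more genes and no more than 20% mitochondrial UMIs (unique molecular identifiers, each standing for one captured RNA molecule). It also needed at least 4 UMIs of Cd79a, Cd79b and Ms4a1 together with at least 1 of Cd79a. It could hold no Cd3e or Cd3d UMI, no more than 3 UMIs of C1qa, C1qb and C1qc, and less than 1.5% of its UMIs from Acta2, Tagln, Myh11 and Cnn1. These limits left 427 B cells of 53983 barcodes that passed the first 2 limits, out of 60871 barcodes in all.

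The study profiled aortic tissue of mice by 10x Genomics droplet sequencing, with 3 samples of genotype Best3FL/FL and 3 of genotype Best3SMKO. Best3 encodes a bestrophin, and the series was made to study how smooth muscle works in a diseased aorta. The aortas were rinsed in cold saline with 3% FBS (fetal bovine serum) to clear blood clots and dissociated into single cells; the sources used here state neither the Cre driver nor the age of the mice, nor whether animals were pooled. All 6 samples were combined in 1 matrix whose barcode suffixes match no sample label, so the suffixes are called libraries 1 to 6, no library was assigned to a genotype, and no value below compares genotypes.

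B cells are lymphocytes that carry an antibody molecule on their surface as an antigen receptor, held there by the signalling proteins CD79A and CD79B. Each cell joins its own V, D and J gene segments for a heavy chain and V and J segments for a kappa or a lambda light chain, and normally makes 1 light chain only. After activation a B cell may switch the constant part of its heavy chain from IgM to IgG or IgA, and it may become a plasma cell that secretes antibody. In and around arteries, B cells of the follicular (B-2) and the innate-like B-1 kinds are known from the fat and connective tissue outside the vessel wall and from lymphoid clusters there.

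The library totals lay between 51813179 and 96144873 UMIs, and the B cells together held 2368992 UMIs. Library 5 stood apart in more than its number of B cells. Its kept barcodes held 2096 CPM (UMIs of the named genes per 1000000 UMIs, summed over cells) of 5 epithelial markers, against 7.44 to 21.9 CPM in the other libraries. Scrublet called 11.3% of its kept barcodes doublets, against 3.02% to 4.23% elsewhere. Kept barcodes of library 5 outside the B cell rule held Igkc at 1419 CPM, against 8.15 to 269 CPM in the other libraries. They included 45 of 48 barcodes with at least 10% immunoglobulin UMIs, described below, whose median was 1943.5 Igkc UMIs. The CPM value was not computed without these, so it is not a level of Igkc in other cell types. Of the T cells of library 5, 60.1% held an Igkc UMI at a median of 2873 UMIs per cell. Of 53656 kept barcode sequences, 324 occurred in several libraries; no 2 B cells shared one, and the 6 other barcodes that shared a sequence with a B cell held 0 marker UMIs. The part of carried-over RNA, doublets or depth in the results below was not tested, and values over all 427 B cells rest mainly on library 5. Numbers, make-up, immunoglobulin genes and some gene levels are also given with library 5 and the other libraries apart. Exact 95% intervals are Clopper-Pearson for shares and Poisson for counts, and they cover counting error only.

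The libraries held 14, 12, 12, 16, 364 and 9 B cells, in order from 1 to 6. B cells made up 2.32% (2.09 to 2.57) of the kept barcodes in library 5. In the other libraries the share was 0.151% in library 1, 0.164% in library 2, 0.203% in library 3, 0.170% in library 4 and 0.141% in library 6. Together those 5 libraries held 63 B cells, or 0.164% (0.126 to 0.210) of 38323 kept barcodes, and library 5 alone held 85.2% (81.5 to 88.5) of all B cells. The library 5 share lay above every other library's interval, and the other 5 libraries overlapped one another. Other white cells were also more frequent there: T cells made up 2.69% of its kept barcodes against 0.453% to 0.679%, and dendritic cells 1.48% against 0.235% to 0.806%, while macrophages, at 6.05%, lay within the 4.89% to 8.20% of the others. B cells numbered 86.5 per 100 T cells in library 5 and 25 to 35.3 in the rest. The number of cells of a type in a library also depends on dissection and dissociation, whose part was not tested.

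**Figure D1:**
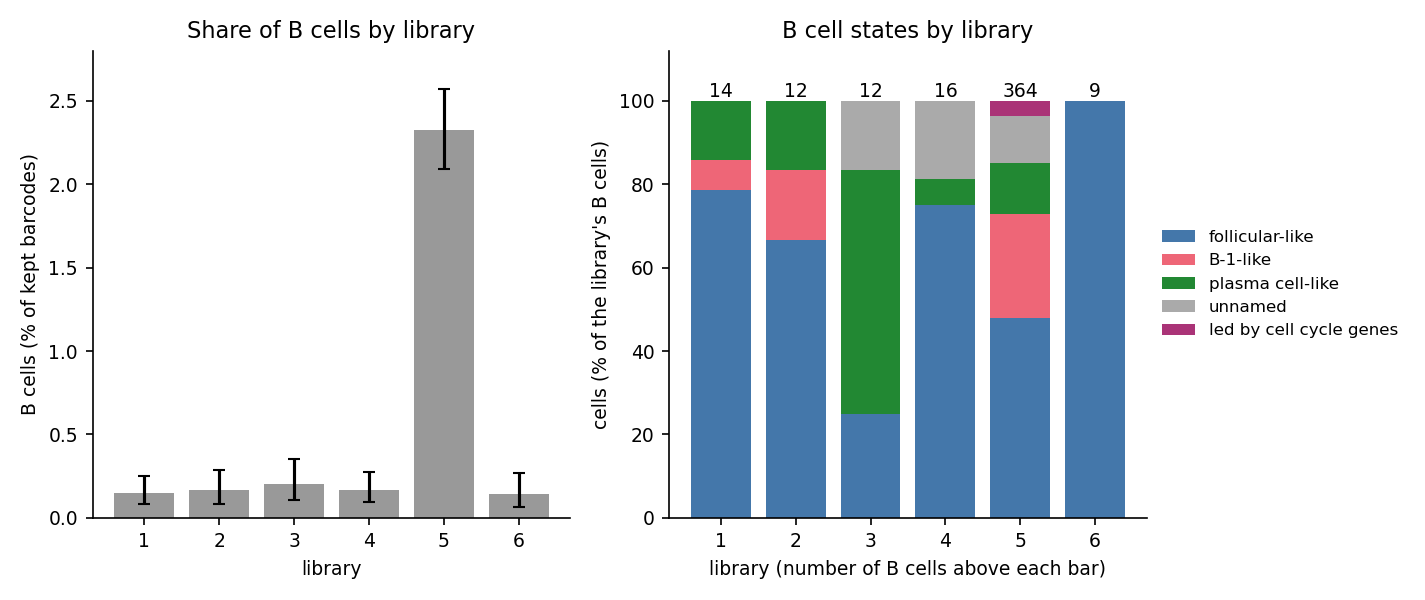
Left, B cells as a percentage of the kept barcodes of each library (bars, with exact 95% binomial intervals as lines); right, the percentage of each library's B cells in 5 clusters, with the number of B cells above each bar. Library 5 stands at 2.32% and the others at or below 0.203%, and plasma cell-like cells make up most of the 12 B cells of library 3.

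The genes that define B cells were far above their level in other cells. Cd79a and Cd79b, the signalling pair of the receptor, stood at 1375 and 477 CPM in B cells against 2.35 and 1.44 CPM in all other kept cells. The rule fixed the presence of Cd79a. Its median was 10, 8, 6, 10, 6 and 4 UMIs per cell in libraries 1 to 6, so single cells rest on few marker molecules. Ms4a1, which encodes CD20, had 557 CPM against 0.678 and was detected in 343 of the 427 cells. Igkc, the kappa constant region, was detected in 417 cells, and its median was 15.5, 26, 4748, 24, 19.5 and 26 UMIs in libraries 1 to 6. Library 3 is far above the rest in that value, and also in depth, with a median of 14100.5 UMIs per B cell against 3132 to 3568 in the others. Close to the limits, 34 members had exactly 4 marker UMIs, with a median of 10.5 Igkc UMIs, and 29 barcodes had 3, with a median of 14. The T cell limit dropped 4 barcodes, the C1q limit 13 and the smooth muscle limit 44.

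Markers of other cell types were low but not absent. The 6 macrophage markers summed to 96.7 CPM in B cells against 14323 CPM in macrophages, and the 6 T cell markers to 55.3 CPM against 3495 CPM in T cells. Smooth muscle markers reached 1707 CPM and fibroblast markers 2174 CPM, with 9642 CPM of the latter in a single cluster of 46 B cells described below. The member rule itself limited Cd3e, Cd3d, the C1q genes and these smooth muscle markers. The T cells and macrophages were in turn chosen by their Cd3 and C1q UMIs. These contrasts were thus partly set by the selection and are not a test of purity. Transcripts of Xist, the RNA of the inactive X chromosome, occurred without Y-linked transcripts in 2, 0, 8, 6, 0 and 0 B cells of libraries 1 to 6. Y-linked transcripts without Xist occurred in 6, 10, 1, 4, 254 and 8. Libraries 1, 3 and 4 thus held B cells of both kinds, and library 5 held 0 with Xist.

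A gene was counted as high in B cells if its CPM, with 2 added to both sides, was at least 4 times that of the other kept cells. Of 7721 genes tested, 382 passed, or 4.95%. The 24 lists of B cell genes hold 227 genes, of which 219 had a UMI in B cells, 175 could be tested and 98 passed. The members were chosen by 3 of these genes, so these counts describe the cells and are not a test. At a floor of 50 CPM, 136 of the list genes could be compared between the B cells of library 5 and of the other libraries, with 10 CPM added to both sides. At least 2-fold higher in library 5 were 17 of them and at least 2-fold lower 5, while 5.41% and 2.29% of all 3105 genes compared were so. In library 5 and the others, Cd79a stood at 1415 and 1202 CPM, Cd37 at 433 and 340, Cd74 at 8856 and 7002 and Ltb at 145 and 156. Genes at a UMI count of 0 in the 427 cells were Rag1, Rag2, Dntt and Igll1 of the precursor list, Csf2 and Ifng of the cytokine list, and the ligand genes Ccl20 and Tnfsf13.

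In the receptor list 7 of 8 genes passed. Cd37, a tetraspanin of mature B cells, had 416 CPM against 10.2 CPM. Cr2, the complement receptor CD21, had 46.0 CPM. The exception was Cd81, a tetraspanin that many cell types carry, at 377 CPM in B cells and 718 CPM in the others. Among the inhibitory co-receptors 6 of 7 tested genes passed, with Cd22 at 100 against 0.303 CPM, Siglecg at 133 against 1.32 and Btla at 95 against 1.48. Fcgr2b, the inhibitory receptor for IgG, had 45.6 CPM in B cells and 375 CPM in macrophages.

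Signalling genes downstream of the receptor passed in 14 of 18 cases. Bank1, a scaffold of B cell receptor signalling, had 282 CPM against 3.85, Blk, a Src family kinase, 98.8 against 1.17, and Syk, the kinase that binds the phosphorylated CD79 tails, 220 against 16. Fyn, at 27.4 CPM, was below the 52.3 CPM of the other cells. Of 20 transcription factors 11 passed. Pax5, which holds cells in the B lineage, stood at 165 CPM against 0.252, Pou2af1, a coactivator of octamer factors, at 301 against 0.793, and Spib at 152 against 0.518. Ebf1, another B lineage factor, did not pass, at 523 CPM in B cells and 264 CPM in the other cells. Outside the lists, the genes with the largest ratios were Ly6d, a surface protein of early and mature B cells, at 998 against 4.23 CPM, and Fcmr, the receptor for the constant part of IgM, at 368 against 0.531.

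Class II antigen presentation genes passed in 10 of 11 cases, but the B cells were not the cells with the highest level. Cd74, the invariant chain, had 8509 CPM in B cells, 11685 in macrophages and 23960 in dendritic cells. For H2-Aa the values were 2488, 4320 and 9342 CPM. The B cell values are summed over all clusters described below, including plasma cell-like cells, with Cd74 at 2883 and H2-Aa at 172 CPM. In follicular-like cells Cd74 stood at 17239 CPM and H2-Aa at 5537 CPM. Both values lay above those of macrophages and below those of dendritic cells. H2-Ob, a part of H2-O, which restrains peptide loading in B cells, followed another order, with 209 CPM in B cells, 108 in dendritic cells and 6.82 in macrophages. Of the 5 costimulation genes tested 3 passed, with Cd83 at 429 CPM and Cd86 at 137 CPM, while Cd40, the receptor for T cell help, had 19.4 CPM, under the floor of 20 CPM.

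Tnfrsf13c, the BAFF receptor of mature B cells, had 122 CPM against 0.285, and Tnfrsf13b, encoding TACI, 110 against 2.35. Tnfrsf13b was at 120 CPM in follicular-like, 136 in B-1-like and 128 in plasma cell-like cells, which are described below. Tnfrsf17, encoding BCMA of plasma cells, had 36.3 CPM, of which all but 1 of 86 UMIs lay in the plasma cell-like cluster. In the survival list 3 of 11 genes passed in all. Their ligand gene Tnfsf13b, encoding BAFF, stood at 12.3 to 31.0 CPM in the non-B cells of the 6 libraries and at 5.49 CPM in B cells. Of 13 homing receptors tested 10 passed: Cxcr5, the receptor for CXCL13, had 83.6 CPM against 0.244, and Ccr7, the receptor for CCL19 and CCL21, 203 against 5.4. The ligand genes were detected in the non-B cells, with Cxcl13 at 11.5 to 34.2 CPM, Ccl19 at 11.4 to 25.7 CPM and Ccl21a at 98.7 to 350 CPM over the libraries. Library 5 was highest for Cxcl13, Ccl19 and Tnfsf13b, and next to lowest for Ccl21a at 111 CPM.

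Of 13 cytokine genes 11 had a UMI in B cells and 5 could be tested. Ltb, lymphotoxin beta, had 147 CPM against 4.33 in the other cells and was the only one of the 5 to pass. Il10 was detected in 24 cells, with 0 UMIs in follicular-like cells, 24.1 CPM in B-1-like cells and 35.9 CPM in plasma cell-like cells. Of the germinal centre list 2 genes could be tested, and 0 of these passed.

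Clustering the 427 cells without immunoglobulin genes gave 5 clusters. Their defining genes are described and not tested. The first held 217 cells (50.8% of all, 46.0 to 55.7), had 5 of 5 follicular markers raised at least 2-fold over the other B cells, and is called follicular-like. Fcer2a, which encodes CD23, stood at 358 CPM there against 15.9 in the other B cells, and Satb1, a chromatin organiser, at 1011 against 64.0. Follicular-like cells were present in all 6 libraries, with 11, 8, 3, 12, 174 and 9 cells. The median depth was 2416 UMIs, the lowest of the 5 clusters.

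The second cluster held 94 cells and had 5 of 8 B-1 markers raised, namely Bhlhe41, Zbtb32, Ctla4, Ahr and Cd300lf, so it is called B-1-like. Raised there as well were 3 of 5 monocyte markers (Ccr2, Plac8 and Lyz2) and 3 of 6 atypical memory markers (Fcrl5, Nt5e and Pdcd1lg2), so the name is less secure than that of the first cluster. Bhlhe41, a transcription factor needed for B-1a cells, had 127 CPM there against 11.1 CPM in follicular-like cells. Zbtb32 had 85.6 against 0 CPM and Ctla4, an inhibitory receptor, 167 against 1.85. Ms4a6c led the cluster at 413 CPM against 21.9 in the other B cells. The classical markers were sparse: Cd5 had 11 CPM and Spn, encoding CD43, 46.1 CPM. Plac8, which is also a marginal zone and monocyte marker, stood at 1531 CPM. Of its leading genes Hdc, Ccl3 and Ccl4 drew 61.2%, 52.5% and 66.1% of their UMIs from 1 cell each. Library 5 held 91 of the 94 cells, libraries 1 and 2 held the other 3, so this cluster and library 5 cannot be told apart.

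The third cluster, plasma cell-like, held 57 cells (2, 2, 7, 1, 45 and 0 by library) and had 8 of 9 plasma cell markers raised. Jchain, which joins IgM and IgA into polymers, reached 27174 CPM against 905 in the other B cells, Derl3 327 against 7.05 and Prdm1, the factor that drives plasma cell formation, 106 CPM against 1.85 in follicular-like cells. Pax5 had 1.24 CPM, H2-Aa 172 CPM and Ms4a1 94.1 CPM there. Prg2 and Slpi were also among the leading genes. The marker rule kept only plasma cells that still held 4 marker UMIs. Outside it, 48 kept barcodes had at least 10% immunoglobulin UMIs, 45 of them in library 5, and 42 of these 48 had fewer than 4 marker UMIs. All 48 held Jchain.

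Another cluster, of 46 cells, stayed unnamed, because its leading genes belong to other cell types. Dcn, a fibroblast proteoglycan, stood at 6846 CPM, and Scgb3a2 of airway epithelium had 99.9% of its UMIs in 1 cell. Scrublet called 25 of the 46 cells, or 54.3%, doublets, compared with 1 of 217 follicular-like cells. The last cluster, of 13 cells all in library 5, was led by cell cycle genes, with Top2a at 1582 CPM, Stmn1 at 2409 CPM and Mki67 at 1205 CPM. Bhlhe41 stood at 230 CPM in these 13 cells and Fcer2a at 0. At another clustering resolution of 0.8 the follicular-like cells split into 130 and 87 cells, and 92 of the 94 B-1-like cells stayed together.

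**Figure D2:**
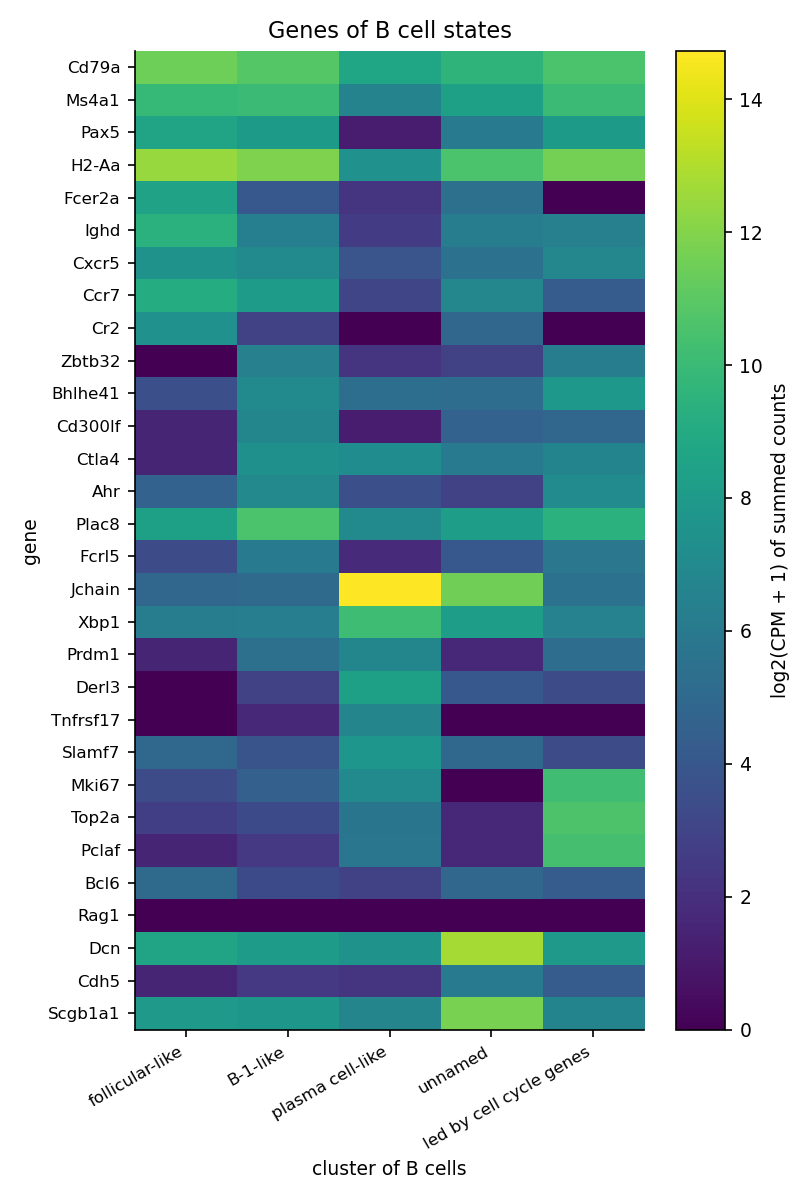
Level of 30 genes in the summed counts of 5 clusters of B cells, as log2(CPM + 1) on a colour scale. Fcer2a, Ighd and Cr2 are brightest in follicular-like cells, Zbtb32 and Cd300lf in B-1-like cells, Jchain and Derl3 in plasma cell-like cells, and Dcn and Scgb1a1 in the unnamed cluster.

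The make-up of the B cells differed between library 5 and the rest. Follicular-like cells were 47.8% (42.6 to 53.1) of the B cells of library 5 and 68.3% (55.3 to 79.4) of the 63 in the other libraries. B-1-like cells were 25% (20.6 to 29.8) and 4.76% (0.993 to 13.3). These pairs of intervals do not overlap, but they count cells and not animals. Plasma cell-like cells were 12.4% (9.16 to 16.2) and 19.0% (10.3 to 30.9), with 7 of the 12 in the other libraries belonging to library 3. Library 6, with 9 B cells, held follicular-like cells only.

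Cells with Mki67 or Top2a transcripts numbered 50 of 427, or 11.7% (8.82 to 15.1). The share was 12.1% in library 5 and 9.52% in the others, and 13.2% in the T cells of all libraries. It was 35.1% in plasma cell-like cells and 3.69% in follicular-like cells, whose median depths were 11874 and 2416 UMIs. Detection of a transcript depends on depth, and no thinned share was made by cluster. With each cell thinned to 1000 UMIs, which left out 14 shallower cells of library 5, the share over all B cells was 6.54%.

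Immunoglobulin genes were left out of the clustering and give an independent view. The share of a cell's UMIs that came from immunoglobulin genes was below 5.04% in 369 cells, with a median of 1.24%. It lay between 10.2% and 78.4% in the other 58, with 0 cells in the gap. These 58 immunoglobulin-rich cells held 36.4% of all B cell UMIs, and 54 of them were plasma cell-like. They numbered 1, 2, 8, 1, 46 and 0 in libraries 1 to 6. Library 3 stands apart with 8 of its 12 B cells, or 66.7%, against at most 16.7% in any other.

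**Figure D3:**
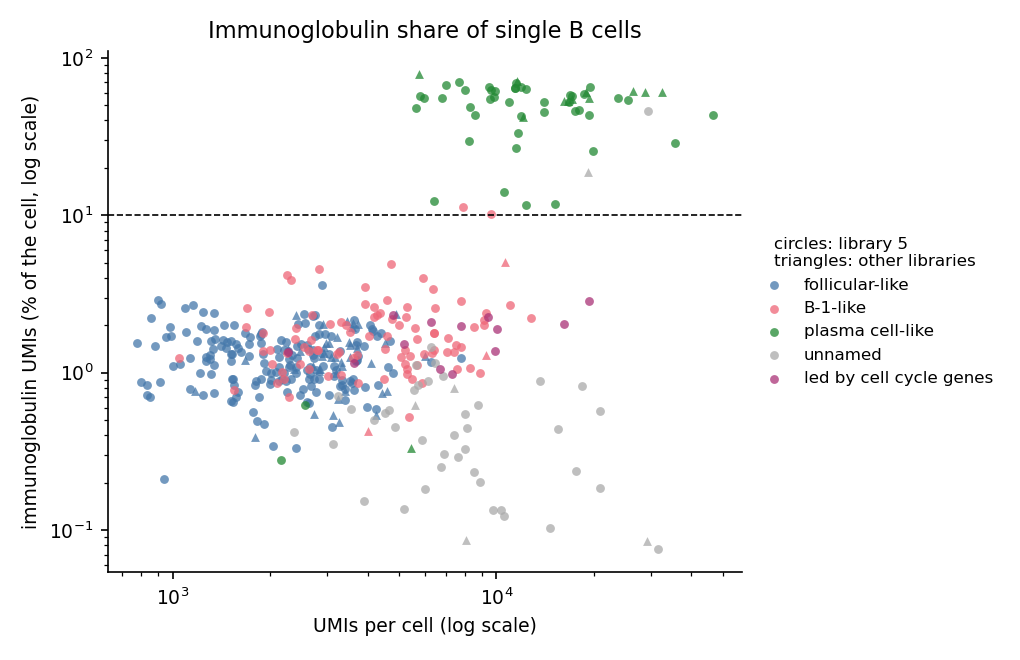
Each point is 1 of the 427 B cells: UMIs per cell on the horizontal axis and the percentage of them from immunoglobulin genes on the vertical axis, both on log scales, coloured by cluster, with library 5 as circles and the other libraries as triangles. The dashed line marks 10%; 58 cells lie above it, 54 of them plasma cell-like, and 0 lie between 5.04% and 10%.

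Most of the cells carried IgM. Ighd, expressed beside Ighm by naive B cells, stood at 24.7 UMIs per 100 Ighm UMIs in follicular-like cells, 1.54 in B-1-like cells, 1.61 in the cluster led by cell cycle genes and 0.0051 in plasma cell-like cells. In follicular-like cells Ighd was at 702 CPM in library 5 and 638 CPM in the other libraries, so these did not stand apart. Of 398 cells with at least 3 heavy chain UMIs, 24 (6.03%, 3.90 to 8.84) had more IgG, IgA and IgE than IgM and IgD. Among the 58 immunoglobulin-rich cells the leading isotype was Ighm in 47, Ighg2b in 4, Ighg2c in 3 and Igha in 4, and it was never Ighg1, Ighg3 or Ighe. All 7 cells led by an IgG gene were in library 5, and 3 of the 4 with Igha were in library 3, where they held 2668, 2754 and 1101 Igha UMIs and at most 1 Ighm UMI. Of the IgG cells, Scrublet called those with 234 and 466 Ighg2b UMIs and with 128 and 175 Ighg2c UMIs doublets. It did not call those with 494 and 835 Ighg2b UMIs or 1846 Ighg2c UMIs. Library 3 was the only library outside 5 with more than 1 switched cell.

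A pair of library 5 cells carried IgM and IgG2b transcripts side by side: 944 Ighm and 860 Ighg2b UMIs in 1 cell, 831 and 835 in the other. Igkv8-28 was the leading kappa V gene of both, on 1 and 2 UMIs. In the other 46 cells led by Ighm the next isotype had at most 14 UMIs. Scrublet called neither of the pair a doublet, but it finds mainly mixtures of unlike cells.

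Many cells of library 5 held RNA of both light chain types. Among 367 cells with at least 10 UMIs of Igkc and Iglc1 together, 272 had less than 20% Iglc1, 8 had more than 80%, and 87 (23.7%, 19.4 to 28.4) lay between. The 87 cells are called double light chain cells here, as a description of their RNA. Their median Iglc1 share was 48.8%, and 53 of the 87 fell between 40% and 60%. Library 5 held 85 of them, or 27.2% (22.3 to 32.4) of its 313 cells assigned. In the other libraries 2 of 54, or 3.70% (0.452 to 12.7), did so, both in library 1.

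The double light chain cells followed the clusters, although no immunoglobulin gene had been used to make these. They were 58 of 91 assigned B-1-like cells (63.7%, 53.0 to 73.6) and 9 of 13 cells of the cluster led by cell cycle genes (69.2%, 38.6 to 90.9). Only 4 of 174 follicular-like cells (2.30%, 0.630 to 5.78) were of this kind. In plasma cell-like cells it was 8 of 55 and in the unnamed cluster 8 of 34. Within library 5 alone the shares were 64.0% of B-1-like and 2.17% of follicular-like cells, so the difference is as large without the other libraries. Scrublet called 8.24% of the library 5 cells with both chains and 8.11% of those with Igkc alone doublets, and 27.1% of the cells it did not call had both chains. In the B-1-like cluster it called 0 of 58 and 3 of 31. Scrublet finds mainly mixtures of unlike cells, so these shares do not test for doublets of 2 B cells. Median depth in library 5 was 5293 UMIs in cells with both chains and 3116 in those with Igkc alone. Other cells of library 5 could hardly be put to the rule, since the minimum of 10 UMIs was reached by 0 of 421 T cells, 4 of 948 macrophages, 1 of 1536 endothelial cells and 1 of 232 dendritic cells. The dendritic cell held both chains. The median in these cell types was 1 or 2 Igkc UMIs and 0 Iglc1 UMIs. In those cells 11.7% to 15.5% of the pooled Igkc and Iglc1 UMIs were Iglc1. Counting whole constant regions rather than V-J junctions, the data do not show whether both RNAs encode a functional chain.

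**Figure D4:**
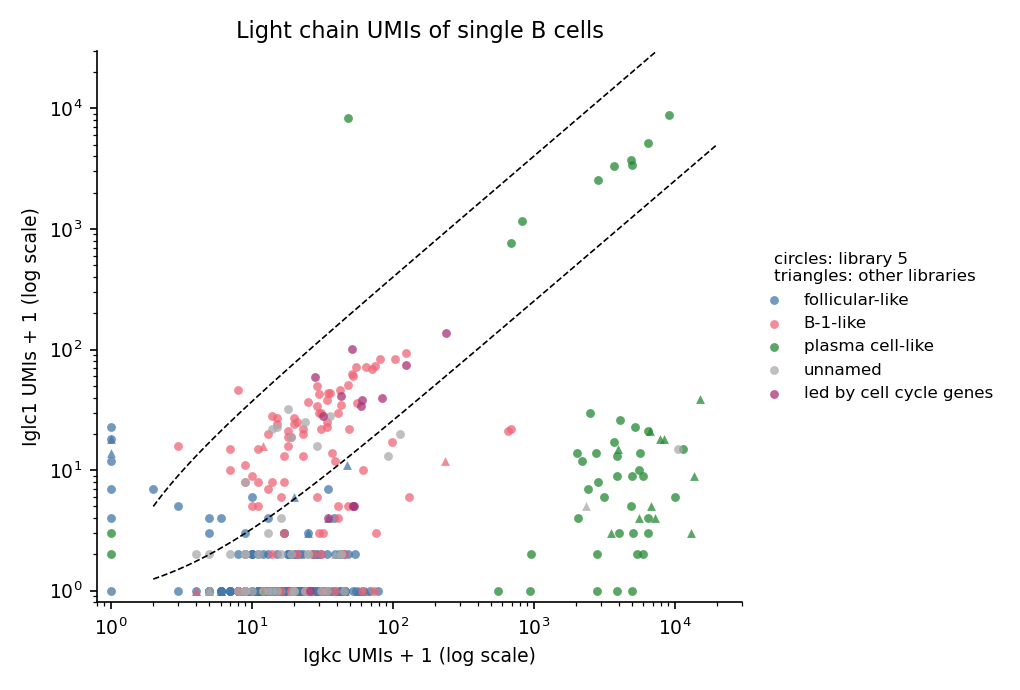
Each point is 1 B cell, with its Igkc UMIs on the horizontal axis and its Iglc1 UMIs on the vertical axis (both plus 1, log scales), coloured by cluster; circles are library 5 and triangles the other libraries. The dashed lines mark Iglc1 shares of 20% and 80%. Most B-1-like cells, most cells of the cluster led by cell cycle genes and 8 plasma cell-like cells of library 5 lie between them. Some cells of the unnamed cluster do so as well, and most follicular-like cells lie below.

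V gene transcripts were too few in most cells to name a receptor: 805 Igkv, 619 Iglv and 194 Ighv UMIs were counted in all. Of the 8 immunoglobulin-rich cells with both light chains, 7 had Igkv5-43 as their leading kappa V gene, all 8 held Iglv1, and 6 had Ighv8-5 as their leading heavy V gene, on 1 or 2 UMIs. Their Iglc1 share lay between 40.4% and 58.6%, with Igkc UMIs from 687 to 9074 and Iglc1 UMIs from 767 to 8826. Igkv5-43 led in 0 of the 49 immunoglobulin-rich cells with Igkc alone. Over all B cells, Igkv5-43 was found in 16 double light chain cells with 68 UMIs and in 2 cells with Igkc alone with 3 UMIs, and Ighv8-5 in 9 of the former with 10 UMIs and in 0 of the latter. Among the double light chain cells under 10% immunoglobulin, 9 of 79 held an Igkv5-43 UMI and 3 an Ighv8-5 UMI. Outside the B cells, library 5 held 10 UMIs of Igkv5-43 and 2 of Ighv8-5, and the other libraries 0 of both. Iglv1 was less particular: it occurred in 27 of the 49 immunoglobulin-rich cells with Igkc alone, with up to 75 UMIs in a cell, although none of these held more than 38 Iglc1 UMIs.

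The 3 segments shared by those cells, and the kappa segment that most often led in the others, are given below from the GRCm38 genome with GENCODE M21 annotation. Shown are the last 300 bases of the germline coding part, 5′ to 3′ on the coding strand, with introns left out. Capitals mark the last cysteine codon in frame, next to which the third hypervariable loop begins. Igkv5-43 lies on chr6:69823355-69823943 (minus strand), Iglv1 on chr16:19085017-19085500 (minus strand), Ighv8-5 on chr12:115067560-115068002 (minus strand) and Igkv15-103 on chr6:68437440-68437925 (plus strand).
Igkv5-43: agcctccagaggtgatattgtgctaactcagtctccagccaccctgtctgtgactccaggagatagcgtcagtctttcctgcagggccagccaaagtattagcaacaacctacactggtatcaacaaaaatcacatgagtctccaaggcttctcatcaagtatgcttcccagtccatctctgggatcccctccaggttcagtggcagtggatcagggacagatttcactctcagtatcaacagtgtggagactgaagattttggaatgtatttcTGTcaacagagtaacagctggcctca
Iglv1: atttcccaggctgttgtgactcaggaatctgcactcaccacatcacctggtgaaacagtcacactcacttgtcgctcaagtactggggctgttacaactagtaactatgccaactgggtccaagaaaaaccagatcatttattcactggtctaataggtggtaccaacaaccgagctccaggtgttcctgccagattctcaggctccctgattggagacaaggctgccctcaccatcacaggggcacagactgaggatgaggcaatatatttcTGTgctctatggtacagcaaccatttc
Ighv8-5: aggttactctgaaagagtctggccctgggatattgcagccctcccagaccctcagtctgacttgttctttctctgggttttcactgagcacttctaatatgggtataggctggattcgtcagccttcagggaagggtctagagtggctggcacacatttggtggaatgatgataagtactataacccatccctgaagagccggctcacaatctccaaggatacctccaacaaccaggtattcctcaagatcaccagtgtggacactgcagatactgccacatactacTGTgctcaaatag
Igkv15-103: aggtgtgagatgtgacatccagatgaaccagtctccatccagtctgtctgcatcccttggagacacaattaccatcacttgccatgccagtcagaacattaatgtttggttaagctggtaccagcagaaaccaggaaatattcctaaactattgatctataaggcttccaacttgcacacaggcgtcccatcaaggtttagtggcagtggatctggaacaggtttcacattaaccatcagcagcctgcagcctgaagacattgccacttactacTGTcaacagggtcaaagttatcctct
The nearest segment to Igkv5-43 was Igkv5-45, at 98.6% identity, and it had 0 UMIs in B cells. Iglv1 was 96.9% identical to Iglv2, which had 2 UMIs, and Ighv8-5 was 96.1% identical to Ighv8-8, which had 0. Igkv15-103 was at most 75.5% identical to any other. Reads that match a close copy as well may have been dropped or moved in the authors' counting, so the first 3 names are less certain than the last.

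Across all immunoglobulin-rich cells the V genes were diverse. A kappa V gene was taken to lead clearly where at least 3 Igkv UMIs were present and at least 80% were of 1 gene, which 38 cells met with 23 different genes. Igkv15-103 led in 6 cells, Igkv5-43 in 5, Igkv4-57-1 and Igkv4-91 in 3 each, Igkv1-110 and Igkv3-2 in 2 each, and 17 genes in 1 cell each. For lambda, Iglv1 led in 23 cells and Iglv3 in 1. A heavy V gene led in 16 cells, among them Ighv10-1 in 4, and Ighv11-2, Ighv5-17 and Ighv5-6 in 2 each.

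Taking the leading Igkv and Ighv gene of each immunoglobulin-rich cell, 42 cells had both, in 29 different pairs. Of these pairs 8 occurred in more than 1 cell, and they covered 21 cells. Igkv5-43 with Ighv8-5 was found in 5 cells, Igkv15-103 with Ighv5-6 in 3, and Igkv4-72 with Ighv10-1 in 3. The last 3 cells all led with Ighg2b, at 494, 234 and 466 UMIs. They were the only immunoglobulin-rich cells led by Ighg2b besides the mixed cell above. Scrublet called those with 234 and 466 UMIs doublets. Over all B cells Ighg2b was the most abundant heavy chain in 9 cells, of which 4 lay in the cluster led by cell cycle genes. Pairs were shared within 1 library in 7 of the 8 cases. The exception was Igkv14-126 with Ighv11-2, found in 1 cell of library 3 on 54 and 27 UMIs and 1 cell of library 4 on 15 and 5 UMIs, both with Ighm. A single library 5 cell paired Igkv4-91 with Ighv12-3, on 9 and 2 UMIs. These last 2 pairs were singled out after their values were seen; both are known from B-1 cells that bind phosphatidylcholine. Many of the heavy chain names rest on 1 UMI.

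The double light chain cells were then compared with the Igkc cells of the same cluster and library, a comparison chosen after the light chain values were seen. Within the B-1-like cells of library 5 there were 57 of the former and 30 of the latter. Of 1936 genes with at least 100 CPM on either side, 9 were at least 4-fold higher in double light chain cells (0.465%) and 39 at least 4-fold lower (2.01%), with 10 CPM added to both. Ctla4 was among the first, at 234 CPM (180 to 298) against 36.1 (11.7 to 84.2), and was found in 25 of 57 cells against 4 of 30. E330020D12Rik, a long non-coding RNA by name, had 309 CPM (247 to 382) against 28.9 (7.87 to 73.9). Zbtb32 was at 79.0 against 79.4 CPM, Ms4a1 at 1081 against 967 and Cd79a at 1685 against 1971, and their intervals overlapped. Lyz2, a myeloid gene, had 86.2 CPM against 874, and Fcer1g 18 against 274. For Ccl4, at 3.59 against 419 CPM, 39 of the 58 UMIs came from 1 cell. Of the 121 Lyz2 UMIs of the Igkc cells 57 came from 1 cell, and Lyz2 was found in 13 of 30 Igkc cells and 21 of 57 double light chain cells. The source of these transcripts was not tested.

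Library 5 was also set against the other libraries gene by gene, with 10 CPM added to both sides. Over all B cells 3105 genes could be tested, of which 168 (5.41%) were at least 2-fold higher in library 5 and 71 (2.29%) at least 2-fold lower. Single cells stand behind many of these. Bpifa1, an airway secretory gene, was at 1708 CPM in library 5 and had 93.5% of its UMIs in 1 cell, and Scgb3a2 had 98.6%. Scgb1a1, the club cell secretoglobin, had 79.6% of its UMIs in 1 cell, but it was also found in 216 B cells of library 5 and in 0 elsewhere. On the other side Snhg11, Vip and Epha5 came from 1 cell of library 4 and Rtn1, Syt4, Dbh and Chga nearly so. Without library 4 the counts were 274 higher and 30 lower, and without library 3 142 lower. Immunoglobulin genes stood on both sides: Ighg2b was at 1518 CPM against 0, Ighg2c at 1138 against 2.25 and Iglc1 at 20937 against 478, while Igha was at 1662 against 14771. Of the Ighg2c UMIs 84.2% came from 1 cell. Of the Igha UMIs of library 5, 3024 of 3201 came from 1 cell, and 6524 of the 6552 in the other libraries from library 3. Without library 3 the others held 96.6 CPM of Igha, so its direction turned.

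Follicular-like cells gave the closest comparison of like with like, with 174 cells in library 5 and 43 in the others. The former held 401644 UMIs together and the latter 139582. Xist was at 0 CPM (0 to 9.18) in the former and 272 CPM (193 to 374) in the latter, so the sides also differed in this transcript. Of 3984 genes tested 164 (4.12%) were at least 2-fold higher in library 5 and 176 (4.42%) lower. Among the B cell lists together 131 genes were tested, of which 5 were higher and 2 lower, shares close to or below those of all genes. By list, 2 of 2 interferon-stimulated, 2 of 9 survival and 1 of 16 receptor signalling genes tested were higher. The interferon-stimulated list summed to 466 CPM in library 5 and 129 CPM in the others. Over all B cells 5 of its 6 tested genes were higher in library 5, and its summed level was highest in the unnamed cluster, at 1249 CPM. Plcg2, Bcl2a1b, Bcl2a1d and Bst2 were among the 5 genes higher in follicular-like cells. Bst2, an interferon-induced antiviral protein, was at 124 CPM (92.4 to 164) against 43.0 (15.8 to 93.6), and these intervals just overlapped. Plcg2, the phospholipase of receptor signalling, was at 154 CPM (118 to 198) against 35.8 (11.6 to 83.6). Cd93, at 24.9 CPM (11.9 to 45.8) against 100 (54.8 to 168), and Cd9, at 29.9 CPM (15.4 to 52.2) against 71.6 (34.4 to 132), were lower, with overlapping intervals for Cd9. Intervals overlapped for 3 of these 7 genes. The receptor, class II and homing genes tested stayed under 2-fold, but intervals did not overlap for 2 of 8, 4 of 11 and 2 of 14 of them. Cd79a was at 3030 CPM (2862 to 3205) against 2543 (2286 to 2822), and Cd79b at 710 CPM (630 to 797) against 989 (831 to 1168). These were the 2 receptor genes whose intervals did not overlap. The member rule used Cd79a, Cd79b and Ms4a1, so their levels also depend on its limits. H2-Aa was at 5998 CPM (5761 to 6242) against 4213 (3879 to 4567), and Cd74 at 18218 CPM (17803 to 18640) against 14422 (13798 to 15066), both higher in library 5. Intervals overlapped for Ms4a1 at 909 against 960 CPM, Fcer2a at 344 against 401, Cxcr5 at 174 against 193 and Ccr7 at 558 against 523. Early response genes, which also react to dissociation, had a median ratio of 0.76, with Fos at 453 against 888 CPM. Epithelial markers were at 344 against 28.7 CPM in the same cells. Their part in these values was not tested.

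**Figure D5:**
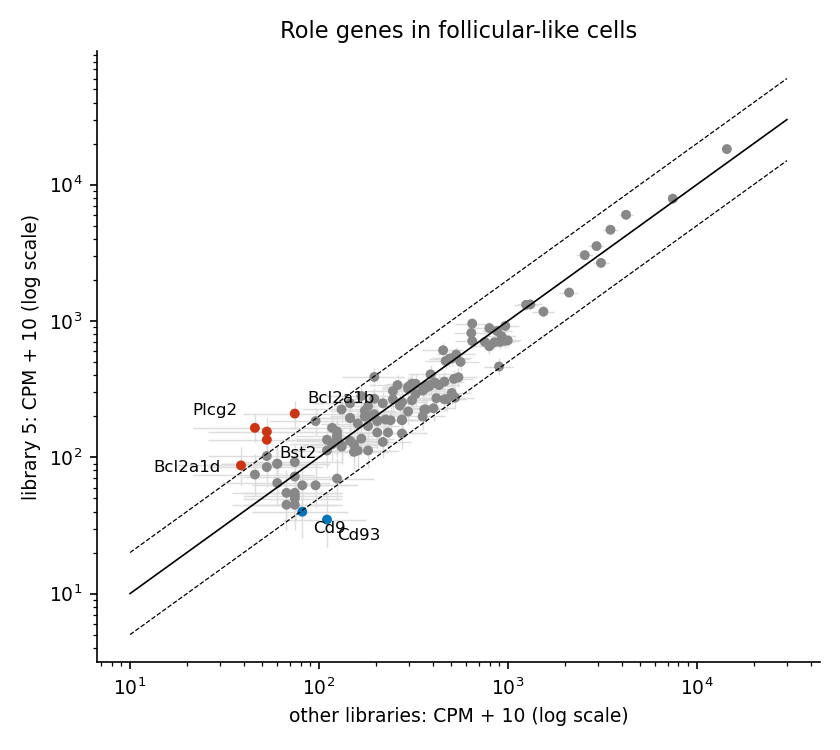
Level of 131 B cell list genes in follicular-like cells of library 5 (vertical axis, 174 cells) against those of the other libraries (horizontal axis, 43 cells), as CPM + 10 on log scales, with exact 95% Poisson intervals as grey lines. The solid line marks equal levels and the dashed lines 2-fold; 5 genes lie above the upper line (red) and 2 below the lower line (blue), and those described in the text are labelled.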

How the data were processed

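Single-cell RNA sequencing (10x Genomics) was done on 6 mouse aortic samples. All values used are raw UMI counts as the authors deposited them, in 1 matrix of 55450 genes by 60871 barcodes that cellranger 6.1.2 wrote, per the file headers. The submitters' processing notes name GRCm38, bcl2fastq 5.01, Seurat 3.1.1 and another Cell Ranger version (3.1.0). Depth per library is given in the report. The barcode suffixes match no sample label, so libraries are unmapped samples: no p-value, mean or SD is given, and size rules stand in for tests.

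Counts were summed over cells and scaled to CPM. A gene was tested against other kept cells with at least 50 UMIs and 20 CPM on either side (2 CPM added, 4-fold), and between library 5 and the others at 50 CPM on either side (10 CPM added, 2-fold, V, D and J segments left out). Clusters used 1500 variable genes without immunoglobulin, ribosomal and mitochondrial genes, 15 components, 15 neighbours and Leiden resolution 0.5. Doublets called by Scrublet were marked and kept. The scripts were tested on simulated data. All 55450 gene identifiers were found in GENCODE M21. The tools were scanpy 1.11.5, leidenalg 0.10.2, pandas 2.3.3, Biopython 1.88, numpy 2.4.6, scipy 1.17.1 and matplotlib 3.10.9 under Python 3.11.15.

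T cells, macrophages, dendritic cells and endothelial cells for comparison were taken by their own marker UMIs, without B cell markers. The members and gene lists were chosen with earlier results of these data known. Named were up to 6 genes of highest CPM and up to 3 of highest ratio per list, genes at 0, the leading genes of clusters and of libraries, and frequent V genes. Fcgr2b, Fyn, Cd5, Prdm1, Plcg2, Bcl2a1d, Lyz2, Fcer1g and the V genes of shared pairs were named after their values were seen. Alternatives changed the limits on genes, mitochondrial share, markers and doublets, the depth, the weighting, the floor, the chain rules and the libraries. Results for some genes are not reported here.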

Additional observations from a re-analysis of the deposited data

Results flagged for a closer look

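Each of 34 quantities was looked at over the 6 libraries, and in 10 of them 1 library lay apart, with a gap to the next of more than 0.625 of the whole range. Chance would set about 1 in 20 such groups apart if all 6 values had equal spread. They do not, with 364 B cells in library 5 and 9 to 16 in the others, so no chance rate can be given. The quantities are also related, and it was known beforehand that most B cells lie in library 5. Library 5 was apart in its share of B cells among kept barcodes (2.32%) and in B cells per 100 T cells (86.5). It also stood apart in the summed level of the cell cycle list (601 CPM, against at most 153 CPM) and of the precursor list (2.08 CPM, from 4 UMIs in all).

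Library 3, with 12 B cells, was apart in 6 quantities. Of its B cells 66.7% had at least 10% immunoglobulin UMIs, and 25% of its cells with an assigned heavy chain were switched. The median B cell there held 14100.5 UMIs, 2470.5 genes and 4748 Igkc UMIs. The cytokine list was low there, at 97.5 CPM against 372 CPM in the next library. Plasma cell-like cells were 7 of its 12 B cells, and the 6 values were not computed without them. The source of these differences was not tested.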

How the results depend on the processing

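No paired analysis was possible because the barcodes cannot be tied to the labelled samples. Of 109 values under alternatives other than leaving out a library, 86 stayed within the interval or within 1.5 times the count of the main value. The share of B cells in library 5 (2.32%) was 2.66% with at least 2 marker UMIs, 1.53% with at least 8, 2.66% without the C1q and smooth muscle limits and 2.07% without the unnamed cluster. Kappa cells (42.2% of 417 assigned, where at least 90% of light chain UMIs were Igkc) were 34.0% with at least 8 marker UMIs, 47.4% after thinning, 64.5% and 28.5% at a purity of 80% and 95%, and 70.8% with Igkc set against Iglc1 alone, since Iglc2 or Iglc3 was present in 355 cells. The share of library 5 cells with both light chains (27.2%) was 32.9% with at least 8 marker UMIs, 32.5% after thinning and 35.6% with at least 20 light chain UMIs. Cells with Mki67 or Top2a were 6.54% after thinning. Genes high in B cells (382) were 242 at a floor of 50 CPM and 143 at 100 CPM. Genes higher in library 5 (168) were 418 at a floor of 20 CPM and 80 at 100 CPM. Genes lower in it (71) were 192 and 28 at those floors, 36 with at least 8 marker UMIs, 176 in follicular-like cells alone, 138 in cells under 10% immunoglobulin outside the unnamed cluster, and 30 outside the unnamed cluster. The cause was not tested. Settings for the follicular-like and unnamed clusters, Iglc1 alone, the 50 CPM floor and the light chain UMI minimum were chosen after seeing the data.

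Leaving out each library in turn gave 63 to 418 B cells, 87.1% to 88.6% of them in library 5, 0.157% to 0.169% of kept barcodes in the other libraries, 41.0% to 50.8% kappa, 5.44% to 6.45% switched and 9.52% to 12.2% with Mki67 or Top2a. It gave 8 to 23 leading Igkv genes, the fewest without library 5, 370 to 403 genes high in B cells, 158 to 274 higher and 30 to 142 lower in library 5. The log2 ratio of Igha in library 5 to the others (-3.14) went from -3.47 to 3.97, turning without library 3, an alternative chosen after seeing the data. The 9 to 16 B cells of each other library limit what can be said of it: a kind of cell absent among 9 could still make up 33.3% of them.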
